A study of Mus musculus with 7 samples.

Results

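DNase-Seq of cultured mouse podocytes was used to compare cells given 25 mM glucose and a miR-93 mimic (HG+miR-93) with cells kept in 5 mM glucose (NG), and so to ask how far promoters of mimic-treated cells in high glucose stood from those of cells in normal glucose. The comparison rested on 4 of 7 samples, 2 NG and 2 HG+miR-93. The series also held 2 samples in 25 mM glucose with a nontargeting mimic (HG+NT) and 1 genomic DNA input. All cells were from a conditionally immortalised podocyte line carrying a thermosensitive T antigen, differentiated in culture and growth arrested in reduced serum, and were taken 36 h later. The HG+miR-93 cells were transfected with 50 nM of the mimic, whereas the labels name no mimic for NG cells, so the glucose and the transfection cannot be told apart between NG and HG+miR-93. The labels describe the cells as kidney epithelial cells and give no batch or date. The replicates of each condition were pooled into 1 list of peaks, 1036304 peaks in NG and 900109 in HG+miR-93, and each value below therefore stands for 1 pooled list with no measure of the spread between replicates. No test between the conditions was possible, and the intervals given are 95% exact Poisson or binomial intervals that cover counting error alone. Of 21829 protein-coding genes in GENCODE vM21, 21812 had a peak in both lists within 500 nt of a transcription start site (TSS). Promoters were ranked by the fold over input within each list, and the ranking was made on 18153 of them. The other 3659 lay on chromosomes 8, 15, 19, X and Y, whose promoters stood apart as a block, and they were placed on the same scale and described separately. A peak had only to overlap the promoter, so its summit could lie outside it. Among the 18153 ranked promoters the summit lay within 500 nt of a TSS at 61.2% in NG and 57.7% in HG+miR-93.

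DNase I cuts DNA where nucleosomes are loose or absent, and active promoters are usually among the most hypersensitive sites of a genome. Podocytes are the epithelial cells that wrap the glomerular capillaries, and their interlocking foot processes are bridged by the slit diaphragm, part of the kidney's filter. High glucose is widely used in culture to mimic diabetes, in which podocytes lose foot processes and the matrix around them thickens. A microRNA pairs through its seed, bases 2 to 8, with messenger RNAs and lowers their translation or stability. The mouse microRNA mimicked here, mmu-miR-93-5p, is shown because its seed defines the treatment (RefSeq, GRCm38.p6, chr5:138165574-138165596, minus strand, seed in capitals).
mmu-miR-93-5p: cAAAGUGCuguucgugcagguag
Its hairpin lies at chr5:138165523-138165610, inside Mcm7, a subunit of the replicative helicase (chr5:138164583-138172422). Among the genes that carry matching sites is Rps6ka4, which encodes MSK2, a kinase that phosphorylates histone H3 downstream of MAP kinases. A mimic supplies the mature microRNA and acts on messenger RNAs, so hypersensitivity at Rps6ka4 or Mcm7 does not measure the level of either RNA or of miR-93.

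The depth of the lists differed. From the fold and the p-value of each peak, the fragments under the summit and the local mean of the input were recovered, and the depth was 2.24 times that of the input in NG, 3.85 times in HG+NT and 5.15 times in HG+miR-93. At the median promoter this left 11 fragments in NG, 17 with HG+NT and 23 with HG+miR-93. Fragment numbers were scaled to the depth of the input before they were compared, and this quantity is called pileup here. The lists were close to exhaustive, covering 93.8% of the genome in NG and 94.9% in HG+miR-93 with p-values of up to 0.900, so the presence of a peak is not evidence of an open site and ranks and pileups were used in its place. A −log10 q of 2 or more was found at 73 NG, 94 HG+NT and 1 HG+miR-93 peaks.

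By fold over input, mimic-treated cells in high glucose had a promoter ranking that was loosely related to that of NG cells. The percentile was at least 25 points higher in HG+miR-93 than in NG at 3718 of 18153 promoters (20.5%) and at least 25 points lower at 3809 (21.0%), and the median promoter differed by 20.2 points in either direction. Spearman's rho between the rankings was 0.395 across the 18153 genes, which are not independent replicates. The pooled lists give no rho between replicates to set beside it. The relation was closer when promoters were ranked by pileup, as given in the closing section on processing. Promoters for which both summits lay within 150 nt of each other (4613, 25.4%) had a rho of 0.569, and their pileups had a rho of 0.837. Pileup in both lists followed the local input mean, with a rho of 0.721 in NG and 0.644 in HG+miR-93.

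The median pileup ratio of HG+miR-93 to NG over promoters was 0.822, or −0.28 on the log2 scale, and pileup ratios below are divided by this median. On that relative scale the middle 90% of promoters ran from −0.92 to 0.86 (log2). The SD of the log2 ratio over promoters was 0.56 and the root mean square of its counting error was 0.55. By quintile of mean pileup the SD was below the median counting error in the lowest 2 (0.60 against 0.70 and 0.46 against 0.60). It was above it in the third (0.58 against 0.53), the fourth (0.56 against 0.45) and the highest (0.42 against 0.38). In that order these held 24, 42 and 21 of the 94 and 65, 154 and 83 of the 312 promoters given next. The 95% intervals of the pileup did not overlap at 94 promoters that were higher in HG+miR-93 (0.518%) and at 312 that were lower (1.72%).

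**Figure D1:**
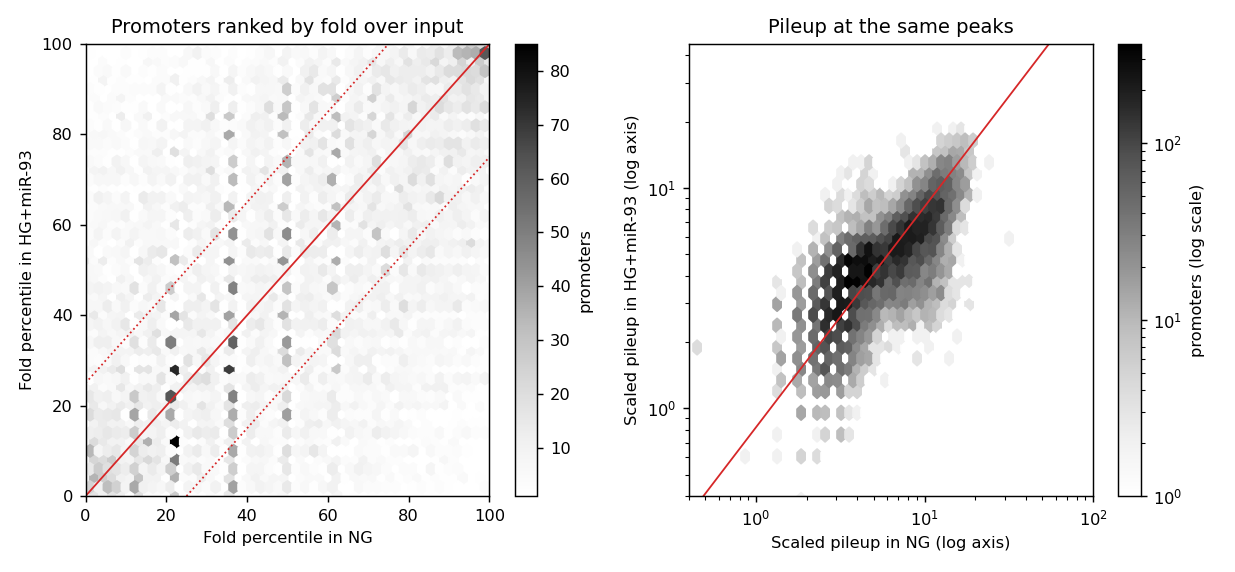
Each of 18153 protein-coding promoters by its value in NG (horizontal) and HG+miR-93 (vertical), as counts of promoters per hexagon. Left, percentile of the fold over input, with the line of equal rank and dotted lines 25 points away; the cloud fills most of the square, with a rho of 0.395. Right, pileup in input-depth fragments on log axes, with the line of the median ratio, 0.822; the points follow the line more closely.

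The differences were not even along the range of openness. When promoters were divided into quintiles of mean pileup, the lowest had a median relative log2 ratio of −0.01, the second 0.33, the third 0.15, and the fourth and the highest −0.20 each. In the highest quintile 30.8% of promoters ranked at least 25 points lower in HG+miR-93, whereas in the second quintile 12.0% were lower and 37.7% higher. Both fragment number and depth differ between the lists, and their part in this gradient was not tested. A list of genes that are usually open in every cell is therefore set beside the value of −0.20, not beside 0.

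Among the 18 genes chosen around the study's model, 14 lay on ranked chromosomes, and 5 of them ranked at least 25 points higher in HG+miR-93 (35.7%, against 20.5% of all promoters) and 2 at least 25 points lower (against 21.0%). The median difference was 11.4 points. When promoters were ranked by pileup instead, taking the peak with the highest pileup, the differences of the 14 genes ran from −15.9 points at Col4a3 to 27.9 points at Fn1.

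Ccn2, Fn1 and Rock1 ranked higher in HG+miR-93, whereas the collagen genes of the model did not both do so, Col4a3 differing by −22.3 points and Col4a1, on chromosome 8, by 1.6 points. Ccn2 (chr10:24595442-24598683), which encodes the matricellular growth factor CTGF, was at the 19.2 percentile in NG, the 91.4 percentile in HG+miR-93 and the 93.5 percentile in HG+NT. It had 11 fragments at its NG peak and 56 at its HG+miR-93 peak, a relative pileup ratio of 2.70 (1.40 to 5.71), and it was the one gene of the 18 whose pileup intervals lay apart. That NG peak had its summit 848 nt from the TSS, and at the NG peak with the highest pileup at this promoter, with 20 fragments, the ratio was 1.49 and the intervals overlapped. Fn1, encoding fibronectin, was at the 86.4 percentile in NG, 98.7 with HG+NT and 99.5 with HG+miR-93, with 12, 33 and 39 fragments. Its relative ratio of 1.72 (0.883 to 3.61) had an interval that included 1. Rock1, a kinase that contracts the actin cytoskeleton, was at the 64.8 percentile in NG, 91.8 with HG+NT and 96.0 with HG+miR-93, with a relative ratio of 1.47 (0.902 to 2.49). In these 3 genes the value in HG+miR-93 was nearer to HG+NT than to NG. HG+NT and HG+miR-93 are both set against the same NG list here, so a low value in NG moves both differences together.

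The genes of the kinase and AP-1 arm of the model had pileup intervals that overlapped. Rps6ka4 lies on chromosome 19, 1 of those set apart, and was at the 89.8 percentile in NG, 84.7 with HG+NT and 85.2 with HG+miR-93, with 19, 28 and 40 fragments and a relative ratio of 1.11 (0.631 to 2.04). Its close relative Rps6ka5 (chr12:100548439-100726983, minus strand), which encodes MSK1, was among the highest promoters of the genome in HG+miR-93, with a percentile of 100, against 88.0 in NG and 99.9 in HG+NT. It had 28 fragments in NG and 75 in HG+miR-93, and the relative ratio of 1.42 (0.908 to 2.27) did not leave the range of counting error. Fos and Jun, partners in AP-1, ranked lower in HG+miR-93 than in NG, at 20.5 against 46.8 and at 68.4 against 80.0, while in HG+NT they ranked at 75.1 and 93.5. By pileup the relative ratio was 0.922 (0.562 to 1.54) for Fos and 1.14 (0.699 to 1.92) for Jun, and both intervals included 1. Junb, on chromosome 8, was at the 90.5 percentile in NG, 78.4 with HG+NT and 97.5 in HG+miR-93, so unlike Fos and Jun it ranked lowest in HG+NT. Its summits lay outside the promoter, at −1778 nt in NG and −1520 nt in HG+miR-93.

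Vegfa and Mcm7 had large differences in rank that were not matched by fragments. Vegfa (chr17:46016993-46032369), the growth factor that podocytes send to glomerular endothelium, was at the 17.9 percentile in NG, 11.3 with HG+NT and 82.7 with HG+miR-93. Its fragments were 21, 27 and 36, and the relative pileup ratio was 0.908 (0.516 to 1.64). The summit lay at −28 nt from the TSS in NG, where the input mean was 6.20, and at 385 nt in HG+miR-93, where it was 2.70. Mcm7 was at the 83.6 percentile in NG, 72.8 with HG+NT and 41.5 with HG+miR-93, with a relative ratio of 0.818 (0.518 to 1.31). Dnm1l, which encodes the mitochondrial fission GTPase DRP1, was at the 9.3 percentile in NG on 5 fragments and at 41.2 in HG+miR-93 on 25, and the ratio of 2.65 had an interval from 0.995 to 8.85. At the NG peak with the highest pileup, which held 16 fragments, the ratio was 0.833.

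The podocyte genes of the model were at low to middling pileup in both conditions. Nphs1, encoding nephrin of the slit diaphragm, had 9 fragments in NG and 24 in HG+miR-93, which put it at percentile 9.7 in NG, 57.3 with HG+NT and 66.6 with HG+miR-93. The summits of both peaks lay outside the promoter, at −1791 nt and 7639 nt from the TSS. Synpo, an actin-binding protein of foot processes, was at 91.0 in NG and 73.9 in HG+miR-93 with 15 and 30 fragments and a relative ratio of 1.06 (0.552 to 2.12). Its HG+miR-93 summit lay outside the promoter, at −3153 nt. Neither the intervals of Nphs1 and Synpo nor those of the reference genes Gapdh (ratio 1.01) and Actb (0.655, 0.418 to 1.03) lay apart.

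**Figure D2:**
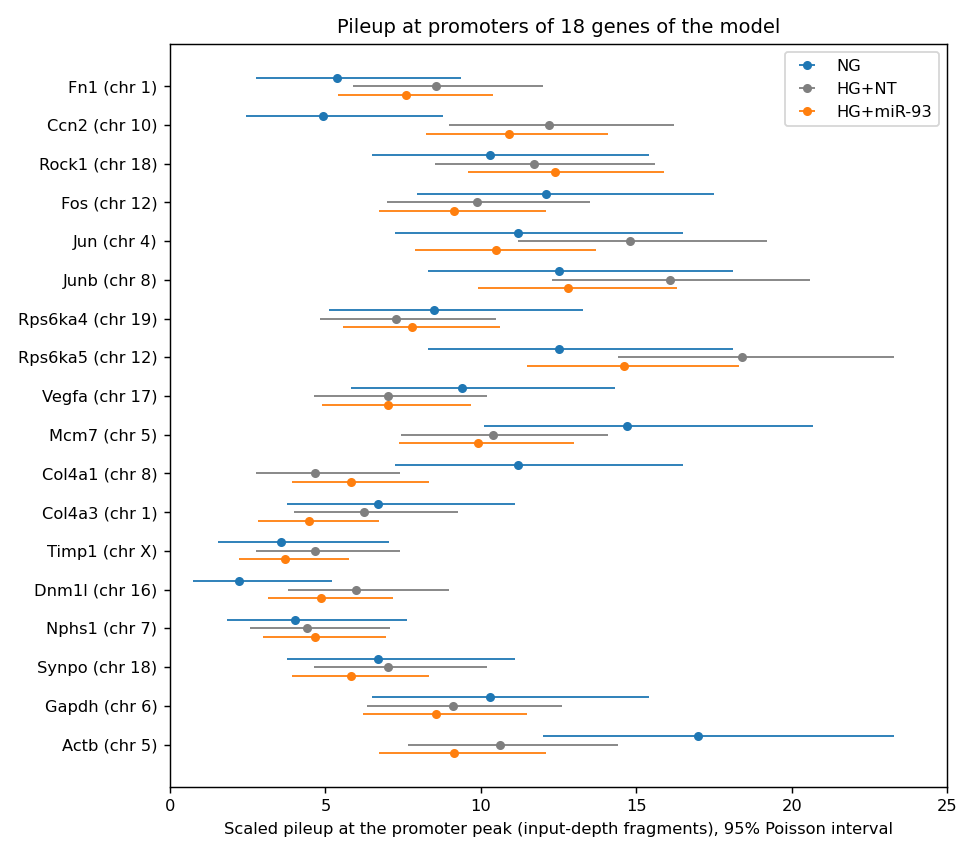
Pileup at the promoter peak of the 18 genes in NG (blue), HG+NT (grey) and HG+miR-93 (orange), in input-depth fragments on a linear axis, with bars for the 95% Poisson interval of each pooled list. Ccn2 has an NG interval (2.45 to 8.79) that ends near the start of the HG+miR-93 interval (8.22 to 14.1) before division by the median ratio, and most other intervals overlap widely.

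The promoter of Rps6ka5 is shown because it ranked at the top of the HG+miR-93 list. The sequence runs from 250 nt before to 50 nt after the RefSeq start (GRCm38.p6, chr12:100725071-100725370, minus strand), with matches on either strand to GGGCGG (GC box) and CCAAT in capitals.
Rps6ka5: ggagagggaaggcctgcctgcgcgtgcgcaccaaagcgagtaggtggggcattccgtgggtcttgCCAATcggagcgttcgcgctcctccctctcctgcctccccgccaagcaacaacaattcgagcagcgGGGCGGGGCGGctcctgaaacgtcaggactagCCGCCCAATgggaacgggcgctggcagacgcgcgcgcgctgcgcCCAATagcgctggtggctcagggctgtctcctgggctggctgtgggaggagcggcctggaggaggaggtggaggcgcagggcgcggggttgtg
It held 3 GC boxes and 3 CCAAT boxes, and neither the AP-1 motif TGACTCA nor the cAMP response element TGACGTCA. One of its GC boxes overlaps a CCAAT box.

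The counts for gene lists below stand beside the 20.5% of all promoters that were at least 25 points higher and the 21.0% that were at least 25 points lower. Many list medians depended on the ranking, so the median by pileup rank is given with them.

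Of the 3 housekeeping groups, the ribosomal protein genes had the lowest summed ratio. Of 73 ranked promoters of cytosolic ribosomal proteins, 25 were at least 25 points lower in HG+miR-93 (34.2%, against 30.8% in the highest quintile of pileup) and 4 at least 25 points higher (5.48%), and the median percentile was 57.5 in NG, 37.6 with HG+NT and 36.3 with HG+miR-93. The median difference was −16.6 points, where that of all promoters was 0.0, but −9.8 with summits near the TSS and −5.4 by pileup rank. The fragments of the 73 promoters summed to 1488 in NG and 2139 in HG+miR-93, and their ratio relative to that of all promoters was 0.792 (0.741 to 0.847). It was 0.821 (0.770 to 0.876) when the peak with the highest pileup was taken, a choice made after the data had been seen. The median relative log2 ratio of the list, −0.31, was below the −0.20 of the 2 highest quintiles of pileup. Rps9 had the largest difference of those meeting the depth criteria, with a percentile of 83.2 in NG, 15.5 with HG+NT and 3.9 with HG+miR-93 on 26, 29 and 27 fragments. Rpl23 had the largest difference in the other direction, from 6.8 in NG to 35.0 in HG+miR-93, while its relative pileup ratio was 0.782 (0.435 to 1.43).

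The nuclear genes of oxidative phosphorylation and the proteasome also had summed ratios below that of all promoters, but less far below it than the ribosomal proteins. Of 78 oxidative phosphorylation promoters, 24 were at least 25 points lower in HG+miR-93 (30.8%, the same share as in the highest quintile of pileup) and 8 at least 25 points higher, with a median difference of −10.9 points (−0.9 by pileup rank) and a summed ratio of 0.909 (0.851 to 0.971). Of 36 proteasome promoters, 11 were lower (30.6%) and 1 was higher, with a median difference of −8.1 points (−4.4 by pileup rank) and a summed ratio of 0.876 (0.794 to 0.967). Psma4, a subunit of the 20S core, was at the 95.5 percentile in NG and 26.5 in HG+miR-93, and had a relative ratio of 0.836 (0.455 to 1.57). The median relative log2 ratio was −0.16 for oxidative phosphorylation and −0.25 for the proteasome, beside −0.20 in each of the 2 highest quintiles of pileup. Against those quintiles the oxidative phosphorylation list was not lower.

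The list of mitochondrial fission and fusion had a median difference of −37.5 points over 7 genes, the lowest of the 34 lists by fold. Of the 7, 4 were at least 25 points lower (57.1%, against 28.5% and 30.8% in the 2 highest quintiles of pileup). The 2 others past 25 points were higher. The 4 lower included Ppargc1a (77.2 in NG, 32.1 in HG+miR-93), which encodes a transcriptional coactivator and not a fission or fusion protein. By pileup rank the list median was −10.7 points, and that of the histone list was lower (−13.5). Mff, an adaptor for DRP1, had 19 fragments in NG and 12 in HG+miR-93, a relative ratio of 0.334. Mfn1, which fuses outer membranes, had 24 and 15 fragments, a ratio of 0.331, and the pileup intervals of both lay apart, but overlapped for the highest-pileup peaks. Fis1 was at the 94.2 percentile in NG and 26.3 in HG+miR-93, and Mfn2 was at 14.7 and 49.8. The summed ratio of the list was 0.722 (0.569 to 0.917) and 0.757 (0.609 to 0.943) with the highest-pileup peaks. Mff and Mfn1 were named after their values had been seen.

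In the list of oxidative stress genes, 2 of 13 were at least 25 points lower (15.4%, below the 21.0% of all promoters) and none at least 25 points higher. They were Sod2, the mitochondrial superoxide dismutase, at 94.2 in NG and 64.2 in HG+miR-93, and Cat, catalase, at 97.9 and 63.0. The summit of the HG+miR-93 peak of Sod2 lay outside the promoter, at −8830 nt from the TSS, against 179 nt in NG. Sod1 and Sod2 had pileup intervals apart, with relative ratios at the highest-fold peaks of 0.485 and 0.381, and those of Sod2 overlapped for the highest-pileup peaks. The glutathione synthesis genes Gclc and Gclm stayed among the highest promoters in both lists, at 97.6 and 98.9 in NG and at 89.2 and 99.1 in HG+miR-93. The summed ratio of the list was 0.855 (0.740 to 0.988), and 0.899 (0.780 to 1.04), which includes 1, with the highest-pileup peaks. The median relative log2 ratio of the list was −0.28, beside −0.20 in each of the 2 highest quintiles of pileup. In the highest quintile 30.8% of promoters were at least 25 points lower.

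Matrix and fibrosis genes had the highest summed ratio of the lists that are not cell type markers, 1.42 (1.19 to 1.70), on 177 fragments in NG and 456 in HG+miR-93. Of 14 ranked genes, 5 were at least 25 points higher (35.7%) and 1 at least 25 points lower (7.14%), and the median difference was 12.9 points (19.9 by pileup rank). Its median pileup in NG was 4.91, as in all promoters, and the second and the third quintile of mean pileup held 37.7% and 26.2% of promoters at least 25 points higher. The median relative log2 ratio of the list was 0.45, beside 0.33 and 0.15 in those quintiles. Those 5 were Ccn2, Thbs1 (30.9 in NG, 99.8 in HG+miR-93), Col1a1 (40.0 and 78.5), Timp2 (53.4 and 91.6) and Mmp9 (45.3 and 78.5). The summits of Col1a1 (1434 nt in NG, 6093 nt in HG+miR-93) and Mmp9 (1134 nt and 679 nt) lay outside the promoter. The relative pileup ratio of Thbs1 was 1.30, and its intervals overlapped. Lox, which cross-links collagen, was the 1 that was lower, at 86.4 and 57.4. Vim, encoding vimentin, was near the top of both lists, at 96.7 and 99.9. In HG+NT, Thbs1 was at 99.2, Col1a1 at 72.0, Timp2 at 46.1 and Mmp9 at 52.6, so Thbs1 ranked nearly as high as in HG+miR-93 while Timp2 and Mmp9 stood near their NG rank. The genes had 9 to 20 fragments each in NG, and with the highest-pileup peaks the summed ratio was 1.32 (1.11 to 1.58).

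The slit diaphragm list had a median difference of −7.4 points over 13 genes (7.2 by pileup rank) and a summed ratio of 0.993 (0.813 to 1.22), and the podocyte transcription factors had −14.9 points over 9 genes (0.1 by pileup rank) and 0.956 (0.781 to 1.17). Foxd1, a podocyte transcription factor, had 14 and 34 fragments and a relative ratio of 1.29 (0.672 to 2.59). Tead1, which carries YAP to DNA, had 32 fragments in NG and 21 in HG+miR-93 and a ratio of 0.347 with intervals apart that overlapped for the highest-pileup peaks, and was named after its value had been seen. The glomerular basement membrane list had a median difference of 2.0 points over 9 genes (9.4 by pileup rank), with Lamc1 from 18.2 to 91.4 and the divergent pair Col4a3 and Col4a4, which share 1 peak, from 84.3 to 62.0. The actin list had −8.0 points over 15 genes, which turned to between 1.4 and 10.4 points under each of the 4 alternatives, and a summed ratio of 1.06 (0.921 to 1.22).

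In the TGF-beta list 4 of 14 genes were at least 25 points lower (28.6%) and 1 was at least 25 points higher (7.14%), Tgfbr1 being at 43.7 in NG and 86.0 in HG+miR-93 and Tgfbr2 at 57.5 and 21.7. The summed ratio, 1.18 (1.01 to 1.39), was above 1 while the median difference was −4.6 points, which turned to 1.6 by −log10 p, 4.6 by pileup and 10.5 with summits near the TSS. With the highest-pileup peaks the summed ratio was 1.05 (0.906 to 1.21). The immediate early genes had a median difference of −15.9 points and none of 9 was at least 25 points higher, and with ranking by pileup the median difference was 1.4 points. In the list of MSK, RSK and MAP kinases, 2 of 12 were higher and 2 lower (16.7% each, below the shares of all promoters), with Map2k1 (MEK1) at 52.9 in NG and 14.1 in HG+miR-93 and Mapk14 (p38 alpha) at 4.5 and 48.9. Map2k2, named after its value had been seen, had 11 and 52 fragments, a ratio of 2.50 with intervals apart that overlapped for the highest-pileup peaks.

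Published targets of the miR-93 seed family, a list compiled from general knowledge, had a median difference of −13.7 points over 9 genes (1.5 by pileup rank and −4.3 with summits near the TSS), with 3 at least 25 points higher (Vegfa, Cdkn1a and Stat3) and 2 at least 25 points lower (Tgfbr2 and Itgb8). Its summed ratio was 0.916 (0.764 to 1.10). None of its genes had pileup intervals apart. The MCM helicase had a median difference of −24.8 points over 6 genes (−3.8 with promoters of 1000 nt on either side and −1.8 by pileup rank), from −78.3 at Mcm4 to 70.9 at Mcm3, and a summed ratio of 0.833 (0.669 to 1.04).

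Of 21 genes of glucose uptake and glycolysis, 6 were at least 25 points lower and 1 was at least 25 points higher. The lower share was 28.6%, beside 28.5% and 30.8% in the 2 highest quintiles of pileup. The median difference was −6.4 points (3.2 by pileup rank) and the summed ratio was 0.952 (0.843 to 1.08). The median relative log2 ratio of the list was −0.11, beside −0.20 in each of those quintiles. The 1 higher was Hk1, a hexokinase, at 57.5 in NG, 99.4 with HG+NT and 99.2 with HG+miR-93, with 20, 55 and 50 fragments. The relative ratio of Hk1 was 1.32 (0.774 to 2.35). Pdk1, which restrains pyruvate dehydrogenase, was at 82.5 in NG and 30.0 in HG+miR-93 with a ratio of 1.01. Txnip, a classical glucose-responsive gene, was at 69.6 and 70.6, and Slc2a1, the glucose transporter GLUT1, at 98.3 and 80.5. In the endoplasmic reticulum stress list 5 of 10 were lower (50.0%, against 30.8% in the highest quintile of pileup) and 2 higher. The median difference was −22.9 points (−2.4 by pileup rank) and the summed ratio was 0.925 (0.797 to 1.07). The stress sensor Ern1 was at 99.8 in NG and 26.5 in HG+miR-93 (ratio 0.588, 0.338 to 1.03), and another sensor, Eif2ak3, was at 17.4 and 97.8 (ratio 1.85). Pdia4, a folding enzyme, was at 5.8 in NG, 93.5 with HG+NT and 95.1 with HG+miR-93, with 26, 59 and 76 fragments.

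**Figure D3:**
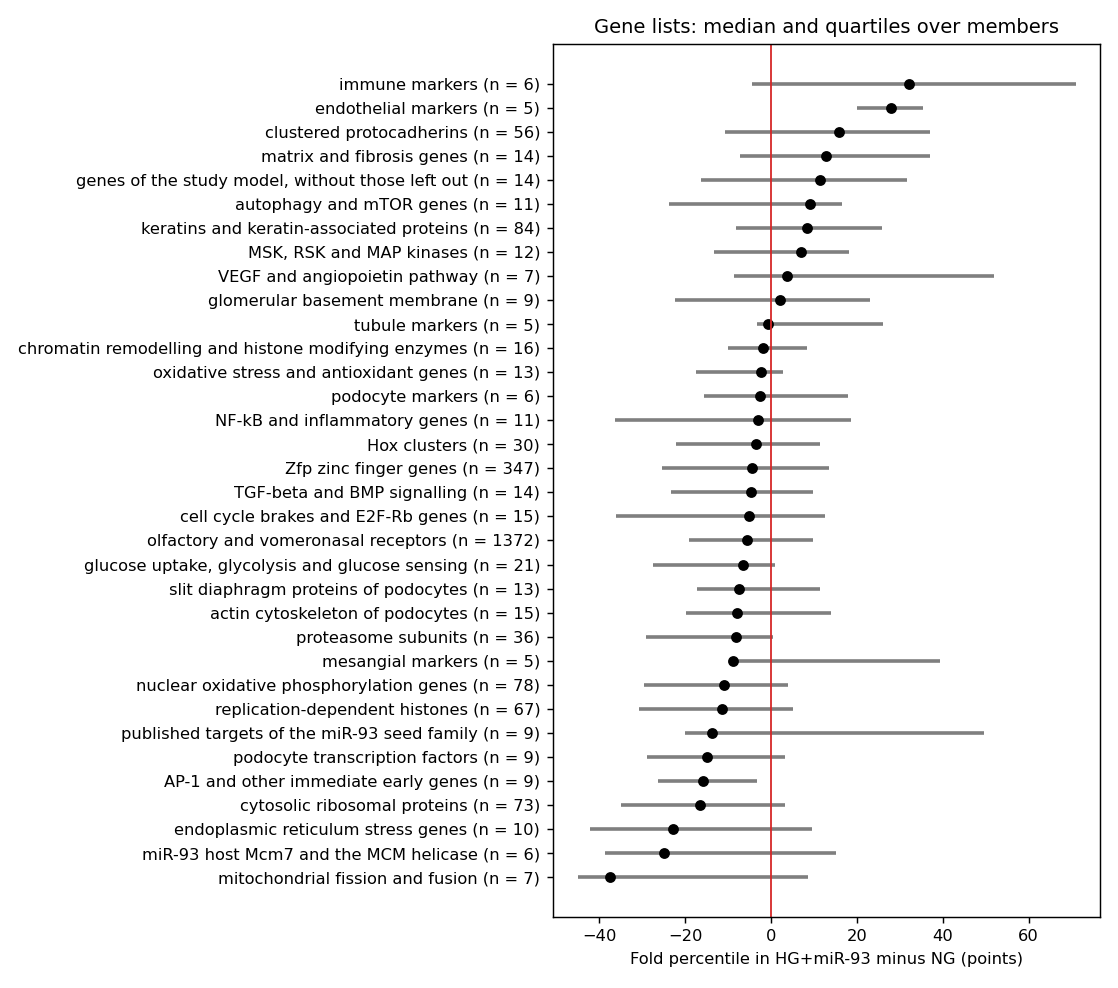
Difference of fold percentile, HG+miR-93 minus NG, for 34 gene lists: points are medians over the ranked members, bars run from the lower to the upper quartile, and n is the number of ranked members. The list of mitochondrial fission and fusion, which also holds Ppargc1a, has the lowest median by fold (−37.5 points). Ribosomal proteins stand at −16.6, matrix and fibrosis genes at 12.9, and most bars cross 0.

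Which promoters stood apart in pileup depended on which peak was taken, since several peaks can touch 1 promoter. By the rule used to name genes, the lowest relative ratios were at Mpc1 (0.183), Ice1 (0.215), Hdac4 (0.217), Trip12 (0.227) and Prdm9 (0.239) and the highest at Ppp2r3d (3.79), Gys1 (3.44), Ruvbl2 (3.13), Usp20 (2.91) and Rab40c (2.77). With the highest-pileup peak in both lists none of the 10 had intervals apart, and their ratios lay between 0.607 at Mpc1 and 1.30 at Usp20. Gys1 and Ruvbl2 share their HG+miR-93 peak. The promoters that stood apart under both choices are described next. All of those were chosen after their values had been seen.

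Under both choices the pileup was lower in HG+miR-93 at 43 of 18153 promoters and higher at 24. With the highest-fold peak alone the shares were 1.72% lower and 0.518% higher. Over all promoters the SD of the log2 ratio, 0.56, was close to the root mean square of its counting error, 0.55. How many promoters would stand apart through counting error alone was not computed. Both summits lay within 500 nt of a TSS at 18 of the lower (16 distinct peaks) and 5 of the higher (4 distinct peaks). The 18 lower had relative ratios of 0.244 to 0.505. They were Rtca, ccdc198, Btbd9, Aig1, Vps4b, Nudcd3 with A730071L15Rik, Lztfl1, Helb, Ndufa10, Rab3gap2, H2-D1, Zfp51, Adal with Lcmt2, Nsun4, Sod1 and Rfxap. Rtca, an RNA cyclase, had the lowest ratio and the closest pair of summits, 5 nt apart, with 70 fragments in NG, 38 with HG+NT and 32 with HG+miR-93. Ndufa10, a subunit of respiratory complex I, was at the 98.9 percentile in NG, 15.3 with HG+NT and 2.1 with HG+miR-93. Its fragments were 30, 24 and 24, its ratio was 0.427 (0.239 to 0.755), and its local input mean was 2.80 at the NG summit and 6.0 at the HG+miR-93 summit, 92 nt away. Rfxap, a factor of MHC class II genes, was at 99.6 in NG, 95.5 with HG+NT and 12.1 with HG+miR-93 with a ratio of 0.505 (0.309 to 0.823). Sod1 had 36 fragments in NG, 34 with HG+NT and 33 with HG+miR-93, and its ratio at these highest-pileup peaks was 0.489 (0.295 to 0.807). At Ndufa10 and Sod1 the raw fragment numbers differed by few, and the scaled values differ because the depth of HG+miR-93 was larger.

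The 5 higher were Ap2a1 (relative ratio 1.86), Abtb1 (1.90), Casc1 with Etfrf1 (2.28) and Lrtm2 (2.93). Of these 5 promoters 4 lay on chromosome 6 and 1 on chromosome 7, and chromosome 6 had the highest median relative ratio of the ranked chromosomes, 1.07. Casc1 and Etfrf1, a divergent pair, had 18 fragments in NG, 65 with HG+NT and 77 with HG+miR-93, an interval of the ratio from 1.35 to 4.05. Abtb1 had 27, 106 and 96 fragments, with an interval from 1.23 to 3.02. At Ap2a1, a subunit of the clathrin adaptor AP-2, there were 27, 81 and 94 fragments. In all 3 peaks both high glucose lists held the larger scaled pileup.

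The promoters of 4 of these genes are shown, 2 lower and 2 higher in HG+miR-93, with matches on either strand to AP-1, cAMP response element, GC box and CCAAT motifs in capitals (RefSeq, GRCm38.p6, 250 nt before to 50 nt after the start). Ndufa10 is at chr1:92473709-92474008 (minus strand), Sod1 at chr16:90220512-90220811 (plus strand), Casc1 at chr6:145210921-145211220 (minus strand) and Abtb1 at chr6:88841886-88842185 (minus strand).
Ndufa10: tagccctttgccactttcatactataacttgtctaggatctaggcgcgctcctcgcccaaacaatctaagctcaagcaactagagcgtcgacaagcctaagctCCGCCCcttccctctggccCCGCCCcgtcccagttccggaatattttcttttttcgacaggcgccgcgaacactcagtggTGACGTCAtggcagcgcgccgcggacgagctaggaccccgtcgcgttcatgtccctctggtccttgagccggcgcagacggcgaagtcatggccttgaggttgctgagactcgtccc
Sod1: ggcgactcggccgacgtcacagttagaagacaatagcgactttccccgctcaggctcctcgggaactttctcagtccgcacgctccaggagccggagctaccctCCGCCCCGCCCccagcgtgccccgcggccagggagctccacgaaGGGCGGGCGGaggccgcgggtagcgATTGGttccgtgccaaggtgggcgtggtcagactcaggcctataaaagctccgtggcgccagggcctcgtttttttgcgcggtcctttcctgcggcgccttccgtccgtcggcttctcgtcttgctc
Casc1: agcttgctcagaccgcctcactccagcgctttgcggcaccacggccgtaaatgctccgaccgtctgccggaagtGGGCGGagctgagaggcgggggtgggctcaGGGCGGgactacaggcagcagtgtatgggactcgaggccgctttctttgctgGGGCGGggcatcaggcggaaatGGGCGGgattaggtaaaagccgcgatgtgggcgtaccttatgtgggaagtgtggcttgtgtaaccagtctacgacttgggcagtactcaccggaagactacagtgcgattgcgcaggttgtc
Abtb1: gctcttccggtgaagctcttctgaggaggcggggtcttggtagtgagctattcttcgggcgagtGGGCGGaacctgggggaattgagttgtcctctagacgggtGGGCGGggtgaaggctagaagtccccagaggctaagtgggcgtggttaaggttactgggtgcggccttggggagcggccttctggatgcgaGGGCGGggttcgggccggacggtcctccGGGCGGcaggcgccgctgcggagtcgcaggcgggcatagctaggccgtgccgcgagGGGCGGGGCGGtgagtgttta
Ndufa10 held 1 cAMP response element and 2 GC boxes. Sod1 held 4 GC boxes and 1 CCAAT box. Casc1 held 4 GC boxes and Abtb1 held 6, with none of the other motifs in either window.

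Over all matched promoters the medians with and without each motif were close. Of 14006 ranked promoters with a RefSeq sequence, 5.44% held the AP-1 motif TGACTCA, and their median difference was −0.3 points against −0.1 without it. The cAMP response element TGACGTCA was held by 2.66%, with a median difference of −4.5 points against 0.0 and a median relative log2 ratio of −0.12 against 0.00. GC boxes were held by 51.2% (−1.1 against 0.7 points) and CCAAT by 41.4% (−1.1 against 0.3 points). By base composition, the second quintile of promoters in CpG content, with 0.900 to 2.70 CpG per 100 nt, had the highest median difference, 8.1 points, and the 2 quintiles richest in CpG had −3.6 and −3.1 points.

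The chromosomes set apart differed as blocks. The median percentile of promoters on chromosome 8 was 50.0 in NG, 75.2 with HG+NT and 73.8 with HG+miR-93. On chromosome 15 it was 54.6, 78.7 and 81.5, and on chromosome 19 it was 53.4, 70.8 and 70.6. On chromosome X it was 22.2, 48.1 and 45.3, and on chromosome Y 13.6, 0.4 and 0.9. The median relative pileup ratio of HG+miR-93 to NG was 1.22 on chromosome 8, 1.32 on 15, 1.22 on 19, 1.28 on X and 0.706 on Y, and on the ranked chromosomes it lay between 0.971 and 1.07. Both high glucose lists differed from NG on these chromosomes in the same direction. The cause was not tested, and differences at single genes there, such as Rps6ka4, Junb, Col4a1 and Timp1, are not separate from it.

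**Figure D4:**
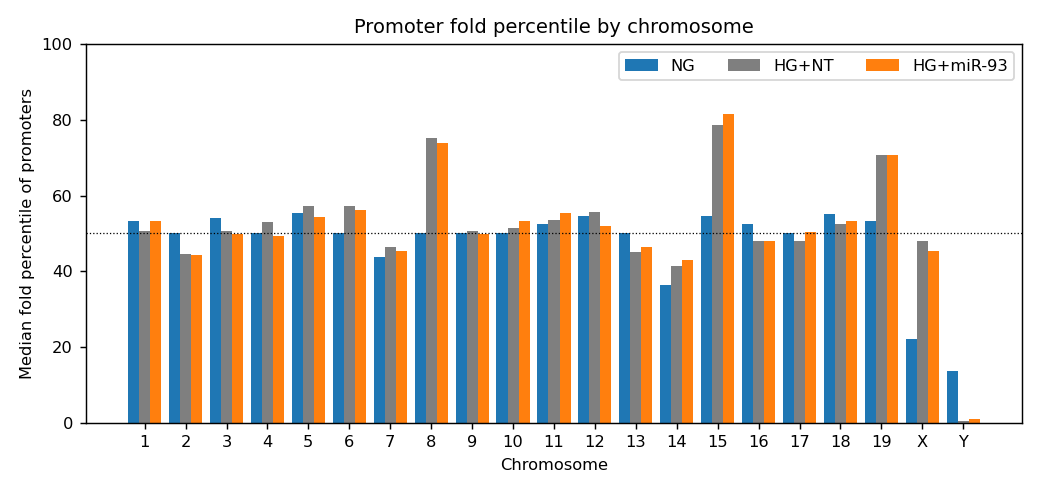
Median fold percentile of protein-coding promoters by chromosome in NG (blue), HG+NT (grey) and HG+miR-93 (orange), as bars from 0, with the dotted line at 50. On chromosomes 8, 15, 19 and X both high glucose lists stand well above NG, on Y they stand below it, and elsewhere the 3 bars are close.

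Beyond promoters, the strongest peaks of the lists overlapped in part. Of the 20000 strongest peaks by −log10 p in each list, on the ranked chromosomes, 20.1% of those of HG+miR-93 (4022) overlapped one of NG, and 20.5% of those of NG (4109) overlapped one of HG+miR-93. Among the 5000 strongest, 35.2% of NG and 40.5% of HG+miR-93 peaks overlapped any of the other 20000. The −log10 p at rank 5000 was 2.45 in NG and 1.81 in HG+miR-93, and at rank 20000 it was 1.81 and 1.63. In HG+miR-93 it was still 1.81 at rank 10000, so many of its peaks were near-ties. Its shared share was 13.5% at ranks 5001 to 10000 and 17.0% at ranks 15001 to 20000. The overlap expected by chance was not computed. The shared peaks had their summit at a promoter in 44.7% of cases in NG and 43.8% in HG+miR-93, against 2.17% and 2.27% of all peaks. Of the strongest peaks that were not shared, 18.9% (18.3 to 19.5) in NG and 7.35% (6.96 to 7.77) in HG+miR-93 lay at a promoter. The unshared HG+miR-93 peaks lay in gene bodies in 53.0% of cases and the unshared NG peaks in 39.7%. The part of the near-ties in these shares was not tested.

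The peaks that passed −log10 q of 2 in NG mostly had a lower pileup in HG+miR-93. Of the 73, 20 had their summit within 500 nt of a TSS, with 28 to 70 fragments, and at these the HG+miR-93 pileup was 0.627 of that in NG at the median (0.199 to 1.21, not divided by the median ratio of promoters). The other 53 lay farther away. At 43 of these an HG+miR-93 peak overlapped, with a median ratio of 0.151 (0.0409 to 0.909) and 33 below 0.25, and at 10 there was no peak in either high glucose list. In HG+NT the median ratio was 0.758 at the 20 and 0.167 at 40 of the 53. The HG summit can lie elsewhere in the peak, so each ratio is an upper bound for the NG summit itself. The 53 had a median G+C content of 48.8% and the 20 one of 67.2%. All of them were selected for being high in NG, so a lower value elsewhere was favoured by the choice.

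The NG peak with the smallest p-value was at chr4:16479073-16479620, with 325 fragments and an input mean of 18.0, 315714 nt from the nearest TSS. A site in Lhx9, a LIM homeobox gene (chr1:138841542-138845339), had 137 fragments in NG and 21 in HG+miR-93. A site in Kdm4b, a histone demethylase (chr17:56398809-56399981), had 219 fragments in NG and no peak in either high glucose list, and a site in Sestd1 (chr2:77259573-77267349) had 111 and none. The site with most fragments, 399, lay at the end of Rps6ka4 farthest from its start (chr19:6829057-6829799), 11289 nt from the TSS, where the input mean was also the highest of the 73, 112, and the fold was 1.59. The 10 sites with no peak in the high glucose lists had input means from 4.0 to 112, and none of the other 43 distant sites had one above 6.0. The 1 HG+miR-93 peak that passed −log10 q of 2, at chr19:41980759-41983319, had 125 fragments and a fold of 5.06, and NG had 45 fragments and a fold of 3.91 there.

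**Figure D5:**
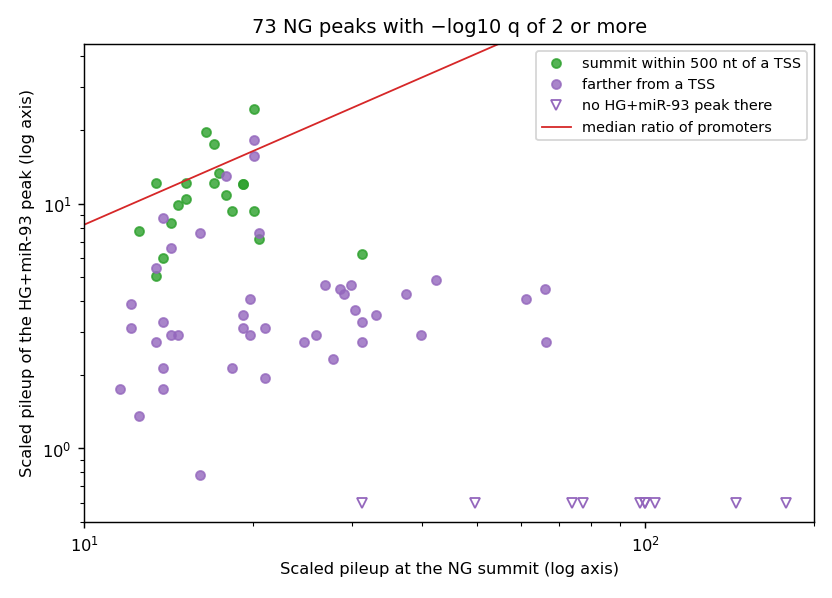
The 73 NG peaks with −log10 q of 2 or more by pileup in NG (horizontal) and of the overlapping HG+miR-93 peak (vertical), in input-depth fragments on log axes. Green points, summit within 500 nt of a TSS; purple points, farther away; open triangles, set at the lower edge, no HG+miR-93 peak; the line is the median ratio of promoters, 0.822. Most purple points and some green points lie below the line.

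Promoter ranks did not single out the labelled cell type. Podocyte markers (6 genes) had a median percentile of 47.7 in NG and 69.2 in HG+miR-93, while the median of their differences was −2.6 points (9.6 by pileup rank). The median percentile was 54.6 and 74.7 for endothelial markers (5 ranked), 75.4 and 71.8 for mesangial markers (5), 57.5 and 54.3 for tubule markers (5) and 22.2 and 71.6 for immune markers (6). Every marker had a peak in both lists and none was at 0, which follows from the coverage of the lists. The summed relative ratio was 1.29 (0.951 to 1.76) for podocyte, 1.18 (0.836 to 1.68) for endothelial, 1.19 (0.858 to 1.68) for mesangial, 0.903 (0.663 to 1.24) for tubule and 1.67 (1.16 to 2.45) for immune markers. The immune markers held 40 fragments in NG and 121 in HG+miR-93, Ptprc (CD45) among them with 6 and 7, Cd79a with 6 and 25 and Cd3e with 5 and 22. Their part in the other differences was not tested.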

How the data were processed

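Nuclei of NG, HG+NT and HG+miR-93 podocytes (2 samples of each) and 1 genomic DNA input were profiled by DNase-Seq. Per the study's methods and the submitters' processing notes, base calls came from CASAVA 1.8.2, and the authors used TrimGalore for trimming, Bowtie for alignment (mm10) and, after removal of duplicate reads, MACS2 for peaks over the input; the versions of the last tools and the peak-calling parameters are not given in the sources used here. The deposited lists hold, for each peak, the authors' fold over input as a ratio and −log10 p and −log10 q values, 1 joint list per condition, so replicates could not be separated. Read totals are not in these lists. Depth was therefore recovered from the fold, taken as the ratio of scaled fragments plus 1 to local input mean plus 1, and the Poisson p. A solution was found for 100.0% of peaks, unique for 99.3% in NG and 99.1% in HG+miR-93. At 3176 summits on the same base in both lists the input means were equal at all 3176 (tolerance 0.001).

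At each promoter (500 nt on either side of any TSS of a protein-coding gene, GRCm38, the lists' build, with GENCODE vM21) the peak with the highest fold was taken and ranked as a percentile within its list. Pileup is fragments divided by relative depth. The lists had a depth of 2.24 (NG) and 5.15 (HG+miR-93) times the input, which sets the width of the 95% exact Poisson intervals. Ratios have exact conditional binomial intervals and shares of peaks Wilson intervals. PCR copies were removed by the authors, but intervals cover counting error only. A summed ratio counts a peak shared by several genes of a list, such as a divergent pair, only once.

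The members, the chromosomes set apart and the 34 gene lists were chosen with earlier results of these data known. The genes named were those of the study's model, the largest rise and fall in each list with at least 10 fragments and both summits within 500 nt of a TSS, and the 5 largest pileup ratios each way; all other genes were chosen after their values were seen. Alternatives were other ranking columns, promoter widths, summit rules, chromosomes, overlap rules and the choice of peak. Computations used scipy 1.17.1, pandas 2.3.3, pysam 0.24.0 and numpy 2.4.6 under Python 3.11.15 and were tested on simulated data. RNA measurements were not analysed here, and a few genes of the lists are not reported here.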

Additional observations from a re-analysis of the deposited data

How the results depend on the processing

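No paired analysis was possible because each condition was deposited as 1 joint list, and for the same reason no replicate could be left out. Ranked by pileup in place of fold, 5.57% of promoters were at least 25 points higher in HG+miR-93 and 6.36% lower, and rho was 0.840. With summits required within 500 nt of the TSS these values were 19.8%, 20.3% and 0.437, and with all chromosomes ranked together 21.2% were higher. Among promoters whose mean percentile was above the median, a choice that narrows the range of both ranks, rho was −0.075. Pileup intervals lay apart at 0.259% (higher) and 3.64% (lower) of promoters when ratios were not divided by the median, at 1.26% (lower) with summits near the TSS, and at 0.154% and 0.237% for the peak with the highest pileup, an alternative chosen after seeing the data. The share of the strongest peaks in common, as a share of HG+miR-93 and of NG, was 23.9% and 24.0% for 5000 peaks, 27.7% and 28.7% for 50000, 11.9% of each with reciprocal overlap of 50% and 7.25% of each with summits within 150 nt. Ranking by −log10 p or a promoter of 1000 nt on either side changed no share by more than its spread. Of 78 named genes, 74 kept their direction by −log10 p, 75 with 1000 nt and 53 by pileup, and of 34 lists 29, 33 and 22 did. With summits near the TSS 72 of 73 genes and 26 of 34 lists did; the cause of these shifts was not tested. All 34 summed ratios stayed within their interval with the highest-pileup peak. The depth of NG, with 11 fragments at the median promoter, limits what a single promoter can show.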

Other observations

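Gene families with many members and some further pathways were not described above, and their counts stand beside the 20.5% of all promoters at least 25 points higher and the 21.0% lower. Clustered protocadherins, cell surface proteins of neurons, had 22 of 56 promoters at least 25 points higher in HG+miR-93 and 9 at least 25 points lower, with a median difference of 15.9 points (3.1 by pileup rank) and a summed ratio of 1.15 (1.03 to 1.29). Keratins and keratin-associated proteins had 22 of 84 higher and 8 lower, a median of 8.4 points (3.6 by pileup rank) and a summed ratio of 1.19 (1.08 to 1.31). Both families had a lower median pileup in NG (3.57 and 3.13) than all promoters (4.91), and the second quintile of promoters by mean pileup had 37.7% higher and 12.0% lower. Replication-dependent histones had 21 of 67 lower (31.3%) and 9 higher, a median of −11.5 points (−13.5 by pileup rank) and a summed ratio of 0.963 (0.871 to 1.07). Zinc finger genes of the Zfp series had 89 of 347 lower (25.6%) and 53 higher (15.3%) and a summed ratio of 0.933 (0.902 to 0.966), Hox genes had 7 of 30 lower (23.3%) and 5 higher (16.7%), both near the shares of all promoters, and 1372 olfactory and vomeronasal receptor promoters had a summed ratio of 0.980 (0.955 to 1.01). Genes of autophagy and mTOR had a median difference of 9.0 points over 11 genes (−0.2 by pileup rank and −11.8 with summits near the TSS). Their summed ratio was 0.943 (0.793 to 1.12). NF-kB and inflammatory genes had −3.1 points over 11 (−3.9 by pileup rank and −23.5 with summits near the TSS) and 0.936 (0.776 to 1.13). For VEGF and angiopoietin genes the median was 3.8 points over 7 (3.4 by pileup rank and 27.3 with summits near the TSS). Their summed ratio was 1.30 (1.02 to 1.66), and 1.25 (0.984 to 1.60), which includes 1, with the highest-pileup peaks. Cell cycle genes had −5.1 points over 15 (3.1 by pileup rank) and 1.01 (0.881 to 1.17). Chromatin enzymes had −1.8 points over 16 (3.2 by pileup rank) and 0.927 (0.806 to 1.07).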
